A study of Mus musculus with 24 samples.

Results

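The nuclear genome encodes most protein subunits of the mitochondrial respiratory chain and of ATP synthase, and 87 of the 46981 gene identifiers in the table belong to this set. They were taken as the protein-coding genes whose mouse symbols begin with Nduf and a subunit letter, Uqcr, Cox4 to Cox8 or Atp5, together with Sdha to Sdhd, Cyc1 and Cycs. By symbol, 37 belong to complex I, 4 to complex II, 9 to complex III (Cyc1 included), 18 to complex IV and 18 to complex V, and Cycs encodes cytochrome c. Ndufa4 and its paralog Ndufa4l2 were grouped by symbol with complex I, although the Ndufa4 protein is now placed in complex IV. The genes lie on 19 chromosomes, with 3 on the X. Of the 87 genes, 59 had counts in all 24 libraries.

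Complex I takes electrons from NADH and complex II takes them from succinate, and both pass them to coenzyme Q. Complex III hands them on to cytochrome c, complex IV reduces oxygen with them, and complex V makes ATP from the proton gradient that complexes I, III and IV build. The nuclear subunits are made in the cytosol and assembled in the inner membrane. In all complexes but complex II they join core subunits encoded by mitochondrial DNA. T cells are known to enlarge their mitochondria after activation.

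RNA was sequenced from mouse CD4 T cells in 2 cohorts, each with its own wild type (labelled Wt). In the Acly cohort the other genotype was CD4-Cre Aclyfl/fl (written CD4-Cre Aclyfl/f among the genotype labels), in which Cre under Cd4 control targets Acly, the gene of ATP citrate lyase. In the Pdha1 cohort it was Pdha1fl/fl CD4CreERT2, in which an inducible Cre targets Pdha1, the gene of the E1 alpha subunit of pyruvate dehydrogenase. Both are called knockout below, after their labels. Cells were resting or activated through CD3/CD28 for 24 h, which gave 8 groups of 3 libraries, and all were grown in RPMI with serum and glutamine. The labels used here give no age, sex or strain, no schedule of Cre induction and no statement that replicates came from separate mice, so a p-value here reflects only how far these libraries spread, which may be technical.

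Depth ran from 388902 to 1087675 recovered counts per library, and 3 counts, the limit that a count of 0 allows, corresponded to 2.03 to 6.83 RPM, the deposited unit, in which reads are scaled to the same total in every library. Intervals and limits of this kind cover counting error only. Acly itself separated its activated groups, at 104, 111 and 109 RPM in wild type and 11.3, 10.6 and 15.0 RPM in knockout libraries 1 to 3, and overlapped at rest. Pdha1 did not separate its groups: activated libraries held 5.35 to 84.7 RPM in wild type and up to 30.4 RPM in those labelled knockout, all 3 of which lay within the wild type range, and whether the reads cover the deleted part is not given. Within the Pdha1 cohort 2 libraries went against their state labels: the library labelled knockout resting 3 had 118 RPM of the activation marker Cd69 against 5.06 to 13.2 RPM in the other resting libraries, and the library labelled wild type activated 3 had 17.2 RPM against 79.9 to 462 RPM in the other activated ones. All 8 CD4 T cell markers were detected in every group, at summed levels of 127 to 2081 RPM, while B cell, CD8 or NK cell and myeloid lists each summed to 10.3 to 114 RPM. These lists lay closer together in resting wild type libraries of the Pdha1 cohort. There the CD4 T cell list summed to 136 to 302 RPM, the B cell list to 63.9 to 114 RPM and the myeloid list to 60.8 to 110 RPM. Erythroid and platelet markers summed to 21.2 to 1204 RPM in the Acly cohort and to 599 to 32768 RPM in the Pdha1 cohort; their part in the results was not tested. The genes of olfactory and vomeronasal receptors, chemosensory families with no established role in T cells, summed to 95039 to 109181 RPM in resting and 30009 to 40831 RPM in activated libraries of the Acly cohort.

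Promoter sequences are shown because the nuclear subunits share regulators: NRF1, GABP (an ETS factor) and YY1 are textbook regulators of respiratory genes. RefSeq windows (GRCm38.p6) from 250 bases before to 50 bases after the start were matched for 69 of the 87 genes. The motif of NRF1 (GCGCA, any base, then GCGC), searched like the others on both strands, was present for 17 of these 69 genes (24.6%) and for 5.19% of all 27025 genes with a window. The GABP motif CCGGAAG was present for 16 (23.2%, against 9.93% of all genes) and the YY1 motif AAGATGGC for 10 (14.5%, against 3.19%). At least 1 of the 3 motifs was present for 37 genes (53.6%, against 16.4%). The GABP and YY1 motifs can share the letters AAG, and a match is a description of the letters in this window only.

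The sequences below stand for complexes I, III, IV and V and for both ends of the activation response described further on. Each is the longest exon-free stretch within the 250 bases before the RefSeq start. It is printed 5′ to 3′ on the gene's strand, with motif matches in capitals. In the printed stretches Ndufb4, Cox6a1 and Atp5h carry NRF1 matches and Uqcr11 carries a GABP match. No match lies in the stretches of Ndufc2, the member with the largest rise, and Ndufb2, the lowest member of complex I. Outside the printed stretches the windows of Cox6a1 and Atp5h also hold a GABP match, and that of Ndufb4 further NRF1 matches.
Ndufb4 (chr16:37654454-37654618, minus strand): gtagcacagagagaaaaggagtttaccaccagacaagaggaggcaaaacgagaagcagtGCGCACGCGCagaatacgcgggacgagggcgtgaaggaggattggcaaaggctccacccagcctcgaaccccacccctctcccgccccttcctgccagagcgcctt
Uqcr11 (chr10:80406831-80407071, minus strand): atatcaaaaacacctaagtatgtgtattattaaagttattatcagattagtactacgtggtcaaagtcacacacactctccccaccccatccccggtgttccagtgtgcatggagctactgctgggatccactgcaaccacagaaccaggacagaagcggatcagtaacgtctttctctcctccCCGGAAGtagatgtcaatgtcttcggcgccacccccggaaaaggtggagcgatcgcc
Cox6a1 (chr5:115348982-115349129, minus strand): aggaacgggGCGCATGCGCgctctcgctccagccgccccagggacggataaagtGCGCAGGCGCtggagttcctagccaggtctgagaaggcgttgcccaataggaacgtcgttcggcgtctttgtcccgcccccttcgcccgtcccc
Atp5h (chr11:115419963-115420127, minus strand): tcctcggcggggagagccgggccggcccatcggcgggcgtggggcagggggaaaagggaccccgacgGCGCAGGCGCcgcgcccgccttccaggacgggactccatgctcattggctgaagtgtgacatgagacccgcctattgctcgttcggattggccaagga
Ndufc2 (chr7:97399753-97400002, plus strand): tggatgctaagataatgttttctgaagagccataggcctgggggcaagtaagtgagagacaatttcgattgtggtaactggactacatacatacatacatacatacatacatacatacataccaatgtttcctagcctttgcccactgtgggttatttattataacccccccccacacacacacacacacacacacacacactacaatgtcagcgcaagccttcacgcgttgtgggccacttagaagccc
Ndufb2 (chr6:39592315-39592564, plus strand): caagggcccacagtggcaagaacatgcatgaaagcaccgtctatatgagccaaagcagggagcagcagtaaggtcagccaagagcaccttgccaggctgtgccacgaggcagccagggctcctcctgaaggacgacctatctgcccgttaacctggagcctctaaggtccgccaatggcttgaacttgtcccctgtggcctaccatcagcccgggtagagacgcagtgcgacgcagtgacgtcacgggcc
The printed matches of Cox6a1 lie 162 to 153 and 117 to 108 bases before the RefSeq start. Those of Ndufb4, Atp5h and Uqcr11 lie 191 to 182, 141 to 132 and 66 to 60 bases before it. The printed stretches of Ndufb4, Atp5h, Cox6a1 and Uqcr11 end 86, 44, 24 and 10 bases before that start.

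In the Acly cohort, which asks what CD3/CD28 activation does to the cells' transcripts with and without ATP citrate lyase, most respiratory chain mRNAs rose. The 87 genes summed to 1625, 1666 and 1218 RPM in resting wild type libraries and to 12919, 12915 and 11497 RPM in activated ones. No activated library came near the resting ones. The 8 CD4 T cell markers moved with them, from summed levels of 287 to 635 RPM at rest to 1742 to 2081 RPM after activation, while myeloid markers went from 50.8 to 69.7 RPM to 22.9 to 27.9 RPM and B cell markers from 25.4 to 79.1 RPM to 10.3 to 25.9 RPM; their part in the rise was not tested. The share of the 87 genes in the RPM of protein-coding genes outside the receptor families went from 0.235% to 0.322% at rest to 1.59% to 1.75% after activation. These are bulk samples of a fixed total, in which fewer cells of a type and less RNA per cell cannot be told apart.

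**Figure D1:**
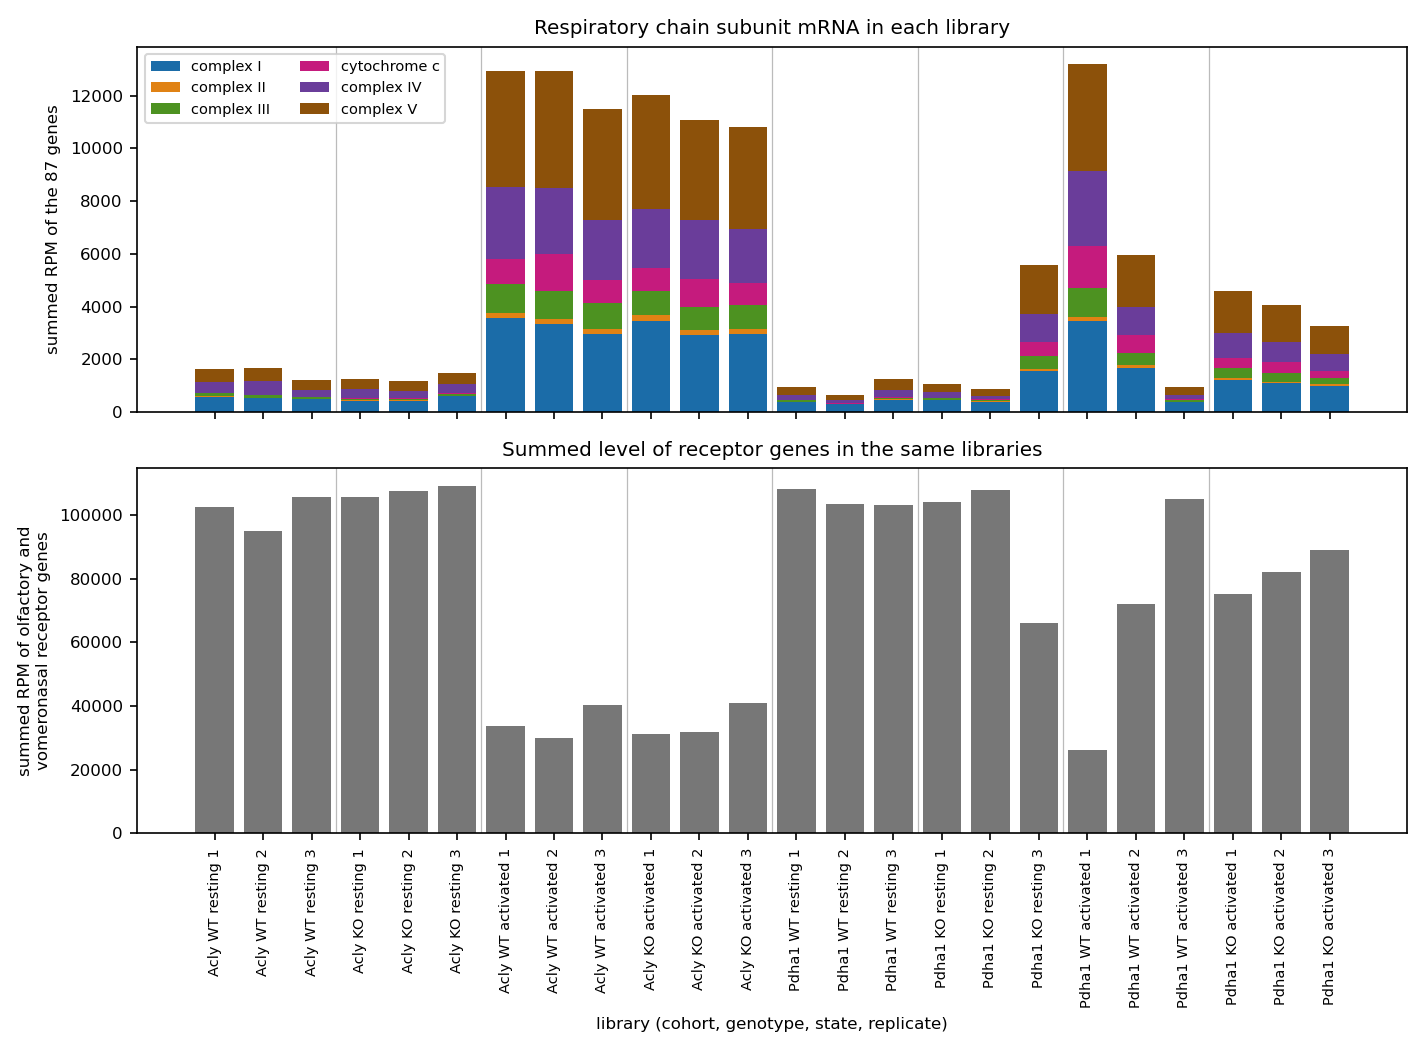
Summed level of the 87 respiratory chain subunit genes in each of the 24 libraries (RPM, upper bars, coloured by complex) and of the olfactory and vomeronasal receptor genes in the same libraries (RPM, lower bars). The 6 activated libraries of the Acly cohort sit between 10825 and 12919 RPM, while the activated libraries of the Pdha1 cohort spread from 950.2 to 13180 RPM, and receptor genes are low where the subunit genes are high.

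Of the 82 members with enough reads to be tested, 76 rose in wild type cells and none passed the threshold as lower, where 21.4% of the 31311 genes tested rose and 23.8% fell (45.2% either way). The threshold was an adjusted p under 0.05 in limma, over all genes, on log2(RPM + 0.5), a scale that understates the change of low genes. The median change was 3.28 for the members and -0.61 for all genes tested. All 3 activated libraries lay above all 3 resting ones for 78 of the 82 members, and for 23.1% of all genes, and below them for Cox7b2 alone, against 28.8% of all genes. The median was 3.16 in complex I, 2.84 in complex II, 3.85 in complex III, 3.24 in complex IV and 3.44 in complex V. Scaling by the trimmed mean moved the median of all genes to -0.29 and that of the members to 3.75, with 77 higher (25% of all genes higher, 14.6% lower), and scaling to protein-coding genes outside the receptor families moved them to -0.89 and 2.80, with 74 higher and 2 lower (17.5% and 32.7%). At rest the levels were small: 21 of the 87 members had a wild type mean under the limit of 3 counts, and 5 had no count. The median member had 3.46 to 7.87 RPM per kb of exon in the resting wild type libraries, where the median receptor gene had 1.60 to 2.27.

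**Figure D2:**
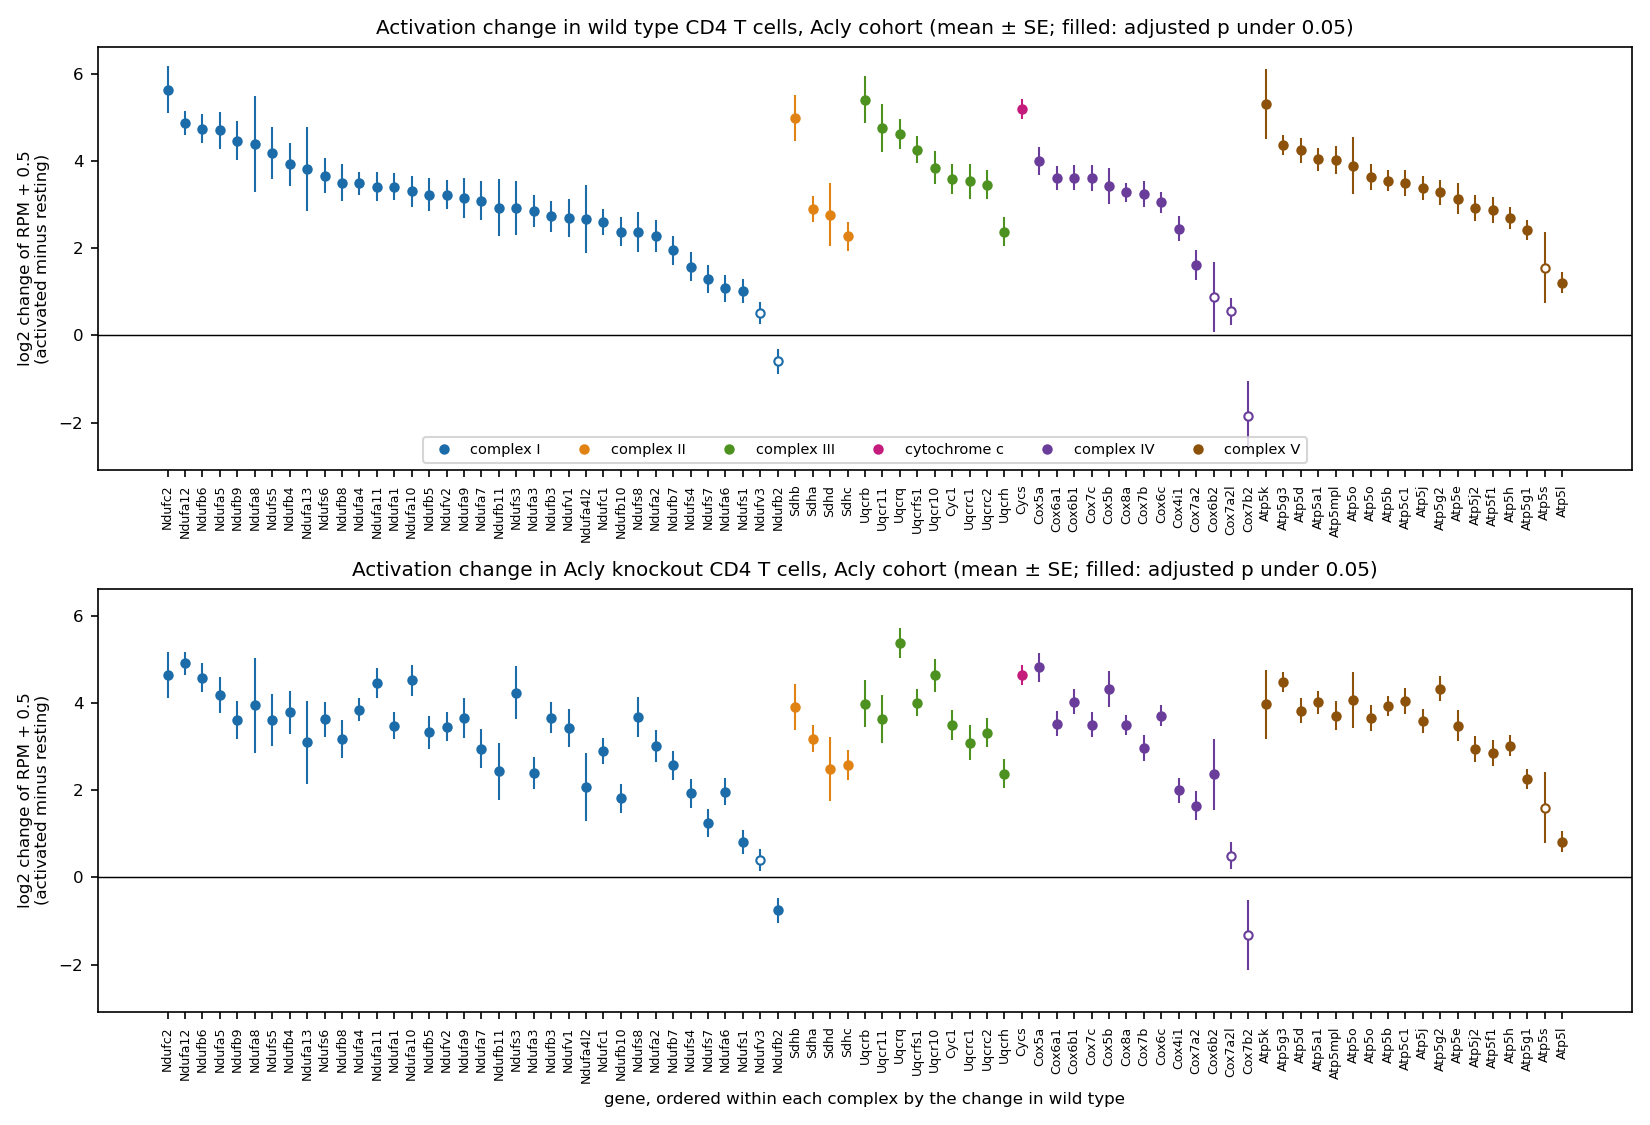
Change of 81 of the 82 tested subunit genes on activation in the Acly cohort (log2 of RPM + 0.5, activated minus resting, mean ± SE, 3 libraries per group), in wild type (upper) and Acly knockout cells (lower), ordered within each complex by the wild type change. Filled points passed the adjusted p of 0.05, most points lie above 0, and Ndufb2 and Cox7b2 lie below 0 in both panels.

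Complex I had 35 of its 37 members higher. By the mean over all 24 libraries its most abundant transcripts were those of Ndufa12 and Ndufc2, both accessory subunits, and of Ndufa4. Ndufa12 went from 17.4, 25.4 and 10.4 RPM to 512, 578 and 435 RPM, a 28.6-fold ratio of means and a log2 change of 4.88 ± 0.27 (SE, adjusted p = 3.26e-18). Ndufc2 went from 8.12, 12.7 and 1.49 RPM to 381, 284 and 258 RPM (5.64 ± 0.53, adjusted p = 1.48e-06), the highest fitted change of all members. Both genes were far apart between states in every library, although the resting values of Ndufc2 rest on few counts. Ndufa4 went from 24.4, 15.5 and 19.4 RPM to 242, 221 and 209 RPM (3.49 ± 0.27).

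The core subunits of complex I, which include those that hold the flavin and the iron-sulfur clusters, differed in how far they rose. Ndufv1, Ndufv2, Ndufs3 and Ndufs8 changed by 2.70, 3.23, 2.93 and 2.37 on the log2 scale, and all 4 of them passed the threshold. Ndufs7 and Ndufs1 rose less, by 1.30 ± 0.32 and 1.03 ± 0.27. Ndufs1 has the longest exon sequence of the set (8.09 kb) and shares exonic bases with Eef1b2 on the opposite strand. The kit named in the labels keeps strand, but whether the counting used it is not given, and 30 of the 87 members have exons over another gene.

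Ndufv3 and Ndufb2 did not pass in limma. Ndufv3, a small flavoprotein subunit, held 53.6, 46.7 and 55.3 RPM at rest and 81.5, 73.4 and 68.4 RPM after activation (0.52 ± 0.25, adjusted p = 0.0935). These groups do not overlap, and it passed as higher in edgeR (1.04, adjusted p = 0.000339), in DESeq2 (0.96, adjusted p = 0.00191), with trimmed-mean scaling (0.98) and with a filter of 5 RPM (0.52), while the sign turned to -0.14 under quantile normalization. Ndufb2 held 91.3, 68.0 and 140.0 RPM at rest and 65.3, 50.9 and 76.5 RPM after activation (-0.59 ± 0.29, adjusted p = 0.0906), and its groups overlapped. It passed as lower with quantile normalization (-1.31), with scaling to protein-coding genes (-1.07) and without wild type resting 2 (-0.83), among other settings. In knockout cells it fell, from 86.4, 75.1 and 155 RPM to 52.5, 53.3 and 74.4 RPM (-0.75 ± 0.29, adjusted p = 0.0289), where 26.7% of all genes fell. No member passed as lower there with trimmed-mean scaling, edgeR or DESeq2, or without knockout resting 3, knockout activated 1 or knockout activated 2. Ndufb2 lies at chr6:39592574-39603382 (GRCm38) and shares exonic bases with Gm42420 on its own strand and with Braf and Gm16272 on the other.

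All 4 subunits of complex II, the succinate dehydrogenase that also serves the citric acid cycle, rose. Sdha, the flavoprotein, went from 10.4, 11.3 and 8.94 RPM to 81.5, 79.9 and 76.5 RPM (2.90 ± 0.31, adjusted p = 2.82e-10). Sdhb, the iron-sulfur subunit, went from 2.32, 2.82 and 0 RPM to 61.3, 42.9 and 55.9 RPM (4.99 ± 0.53). The membrane anchors Sdhc and Sdhd changed by 2.27 ± 0.34 and 2.77 ± 0.73. Sdhd was the scarcest subunit here, with 3 counts in all resting wild type libraries and 35 in activated ones, a ratio of 7.68 with a 95% counting interval of 2.42 to 39.0. Complex II held on average 1.57% of the summed member RPM at rest and 1.56% after activation.

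Complex III had all 9 members higher. Uqcrq, a small subunit, went from 15.1, 15.5 and 5.96 RPM to 289, 302 and 273 RPM (4.62 ± 0.34, adjusted p = 2.07e-13). Uqcrfs1, the Rieske iron-sulfur protein, went from 10.4, 15.5 and 5.96 RPM to 223, 209 and 170.3 RPM (4.26 ± 0.30), and Cyc1, which carries the heme of cytochrome c1, from 5.8, 9.87 and 5.96 RPM to 91.7, 96.1 and 81.9 RPM (3.59 ± 0.35). No library of either state reached the other. Uqcrb and Uqcr11 had the highest fitted changes, 5.40 ± 0.54 and 4.77 ± 0.55, but Uqcr11 rests on 2 resting counts against 106, a ratio of 34.9 with a counting interval of 9.43 to 292. Uqcrh, the hinge protein between complex III and cytochrome c, had the lowest change of the complex (2.38 ± 0.33).

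Cycs, the electron carrier that is also released in apoptosis, was the most abundant member after activation. It went from 33.7, 31.1 and 22.4 RPM to 962, 1412 and 893 RPM in wild type cells, 37.5-fold by means (5.19 ± 0.23, adjusted p = 2.25e-21). In knockout cells it went from 32.1, 34.2 and 41.7 RPM to 848, 1051 and 837 RPM (4.65 ± 0.23, adjusted p = 6.56e-20). Cytochrome c alone made up 1.84% to 2.08% of the summed member RPM in resting wild type libraries and 7.45% to 10.9% in activated ones.

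Complex IV had 10 of its 13 tested members higher, and 5 more were too low to test. Cox8a, a small nuclear-encoded subunit, went from 91.3, 90.9 and 52.3 RPM to 796, 762 and 670.3 RPM (3.28 ± 0.23, adjusted p = 1.65e-15), and Cox6c and Cox6b1 changed by 3.06 ± 0.24 and 3.61 ± 0.29. Per kb of exon Cox8a was the highest member named here, at 126 RPM per kb at rest and 1200.0 after activation. Cox5a, a subunit on the matrix side, had the largest change of the complex, 17.0-fold by means (adjusted p = 3.48e-13).

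Several complex IV subunits exist as a general and a tissue-restricted form, and the general forms rose. Cox4i1, the general form of subunit 4, went from 38.4, 35.3 and 16.4 RPM to 147, 164 and 157 RPM (2.45 ± 0.28), and Cox6a1 and Cox7a2 changed by 3.61 ± 0.28 and 1.61 ± 0.34. Of the lung or hypoxia form Cox4i2, the heart and muscle forms Cox6a2, Cox7a1 and Cox8b and the testis form Cox8c, no library of this cohort held more than 1.16 RPM. The testis form Cox6b2 had no count at rest in wild type and at most 2.64 RPM after activation (adjusted p = 0.379), at or under the limit of 3 counts per library. Cox7b2, another testis form, held 3.48, 1.41 and 1.49 RPM at rest and 0, 0.789 and 0 RPM after activation (adjusted p = 0.0544), means at or under the limit of 3 counts. Cox7b2 passed as lower with scaling to protein-coding genes (-2.11, adjusted p = 0.0263), in limma without trend and robust (adjusted p = 0.0223), and without wild type activated 2 (-2.31, adjusted p = 0.0426) or knockout activated 3 (adjusted p = 0.049), so its call depends on the setting.

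Cox7a2l, a relative of subunit 7a that joins complexes III and IV into supercomplexes, did not pass the threshold in limma. The general forms Cox4i1, Cox6a1, Cox6b1, Cox7a2, Cox7b and Cox8a did. Like Cox8a, Cox7a2l was already high before activation. It held 135, 214 and 55.3 RPM in resting and 166, 180.1 and 170.3 RPM in activated wild type libraries (0.55 ± 0.30, adjusted p = 0.139). The resting libraries span the activated ones. In knockout cells it held 127, 94.6 and 111 RPM and 151, 174 and 143 RPM (0.50 ± 0.30, adjusted p = 0.179), without overlap. Under quantile normalization the wild type change was -0.19, while it passed as higher in edgeR (0.77, adjusted p = 0.00883) and without wild type resting 2 (0.99).

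Complex V had 17 of its 18 identifiers higher. Atp5b, the catalytic beta subunit, went from 38.4, 39.6 and 50.8 RPM to 554, 471 and 491 RPM (3.55 ± 0.23, adjusted p = 5.85e-16). Atp5d, the delta subunit of the central stalk, and Atp5a1, the alpha subunit, changed by 4.25 ± 0.29 and 4.04 ± 0.27. Atp5k, the membrane subunit e, had the highest fitted change (5.31 ± 0.80) on 6.96, 2.82 and 0 RPM at rest. Atp5l, the membrane subunit g, had the lowest of those that passed, from 48.9, 53.8 and 68.9 RPM to 141, 124 and 131 RPM (1.21 ± 0.25), and did not pass with quantile normalization (0.45). Atp5s, a coupling factor, stayed at or under 3.52 RPM in wild type libraries and did not pass (adjusted p = 0.113). Atp5o has 2 overlapping identifiers that can share reads, so its values are uncertain. How reads that fit several copies of a gene were counted is not given in the sources used here, which leaves members with near-identical copies uncertain as well.

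The c subunit of the membrane ring has 3 genes that encode the same mature protein, and Atp5g3 supplied a larger share of their transcripts after activation. Atp5g3 went from 26.7, 45.3 and 37.3 RPM to 736, 797 and 720.4 RPM (4.38 ± 0.23, adjusted p = 4.73e-19), Atp5g2 changed by 3.28 ± 0.28 and Atp5g1 by 2.42 ± 0.23. Counted per kb of exon, Atp5g3 supplied 27.2% to 48.7% of the sum of the 3 genes in resting and 60.9% to 65.0% in activated wild type libraries. The share of Atp5g1 went from 19.6% to 30.8% to 10.1% to 11.7%, and neither range overlaps the other state's. In activated knockout libraries Atp5g3 supplied 54.1% to 59.9%. The length joins all annotated exons of a gene, 4912 bases for Atp5g1, 1675 for Atp5g2 and 2181 for Atp5g3. The shares, and which gene leads at rest, depend on these lengths, while the fitted changes do not.

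**Figure D3:**
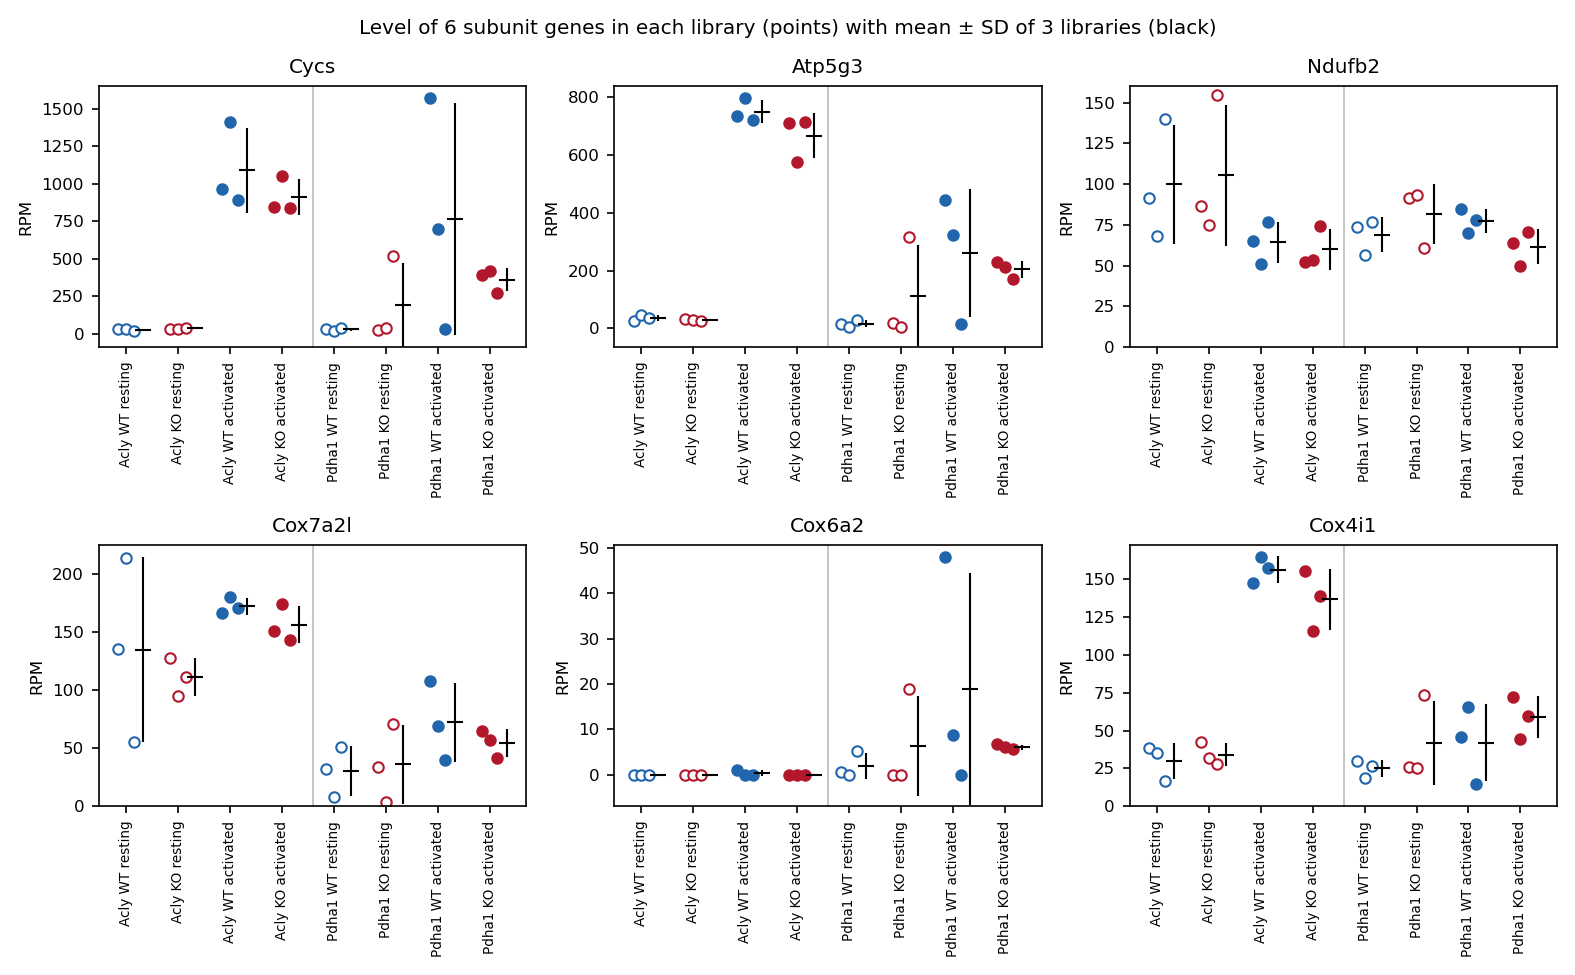
Level of Cycs, Atp5g3, Ndufb2, Cox7a2l, Cox6a2 and Cox4i1 in each library (RPM, linear axes; blue wild type, red knockout; open resting, filled activated), with the mean ± SD of 3 libraries in black. Cycs and Atp5g3 separate the states in the Acly cohort, Ndufb2 and Cox7a2l are already high in its resting libraries, and Cox6a2 has counts almost only in the Pdha1 cohort.

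In activated Acly knockout cells 77 of 82 members rose and 1 fell, where 20.7% of all genes rose, and the median was 3.49 against -0.67 for all genes. All 3 activated libraries lay above all 3 resting ones for 78 members, and for 22.6% of all genes, and below them for Ndufb2 and Cox7b2, against 33.2% of all genes. Across the 82 members the changes in the 2 genotypes, which come from separate libraries, had a Spearman correlation of 0.82, given as a description over genes that share libraries and depth.

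**Figure D4:**
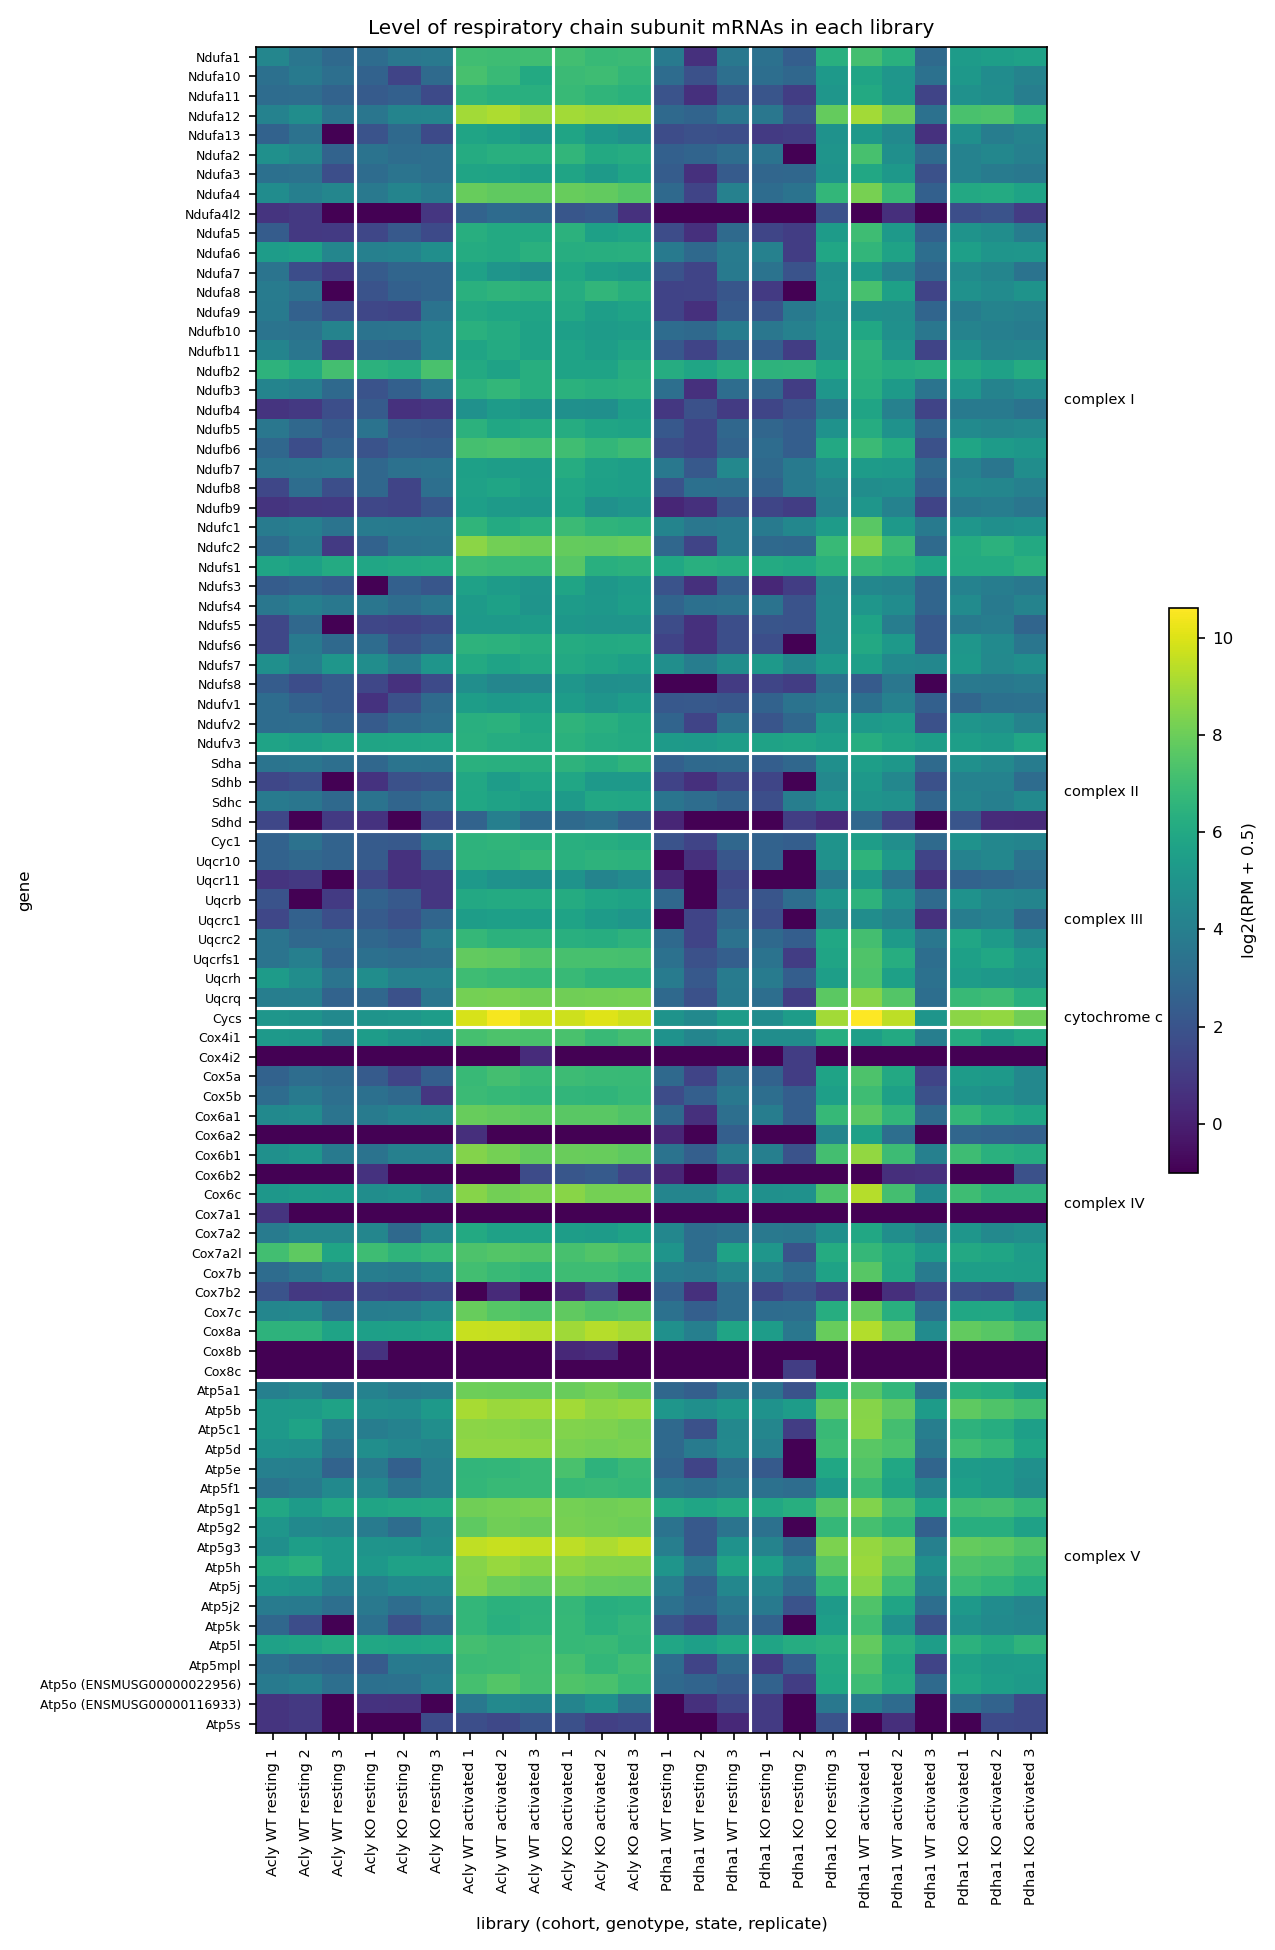
Level of 86 of the 87 genes (rows, by complex) in each of the 24 libraries (columns, 3 per group), as log2(RPM + 0.5). The activated Acly libraries are bright for most genes of complexes I to V, 5 tissue forms of complex IV stay dark there, and in the Pdha1 cohort wild type activated 3 looks like the resting libraries.

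Other genes of the pathway are given by list for activated wild type cells of the Acly cohort, where 21.4% of all genes rose and 23.8% fell. Assembly factors were higher for 14 of 17 genes of complex I, 4 of 10 of complexes II and III, 14 of 20 of complex IV and 2 of 3 of complex V, with medians of 2.07, 1.15, 1.74 and 1.13. Ndufaf4, a complex I assembly factor, went from 6.19 ± 0.691 to 168 ± 33.1 RPM (SD, n = 3), and Ndufaf6 had no count at rest and 40.8 ± 8.99 RPM after activation. Acad9, which takes part in complex I assembly, was the 1 assembly gene that fell, from 161 ± 4.1 to 80.8 ± 18.3 RPM (-1.01 ± 0.24, adjusted p = 0.00054), a call that ended with trimmed-mean scaling (-0.54). The 3 listed components that the symbol rule leaves out, Ndufab1, Usmg5 and Atpif1, all rose, by 1.30, 2.09 and 2.81.

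The 13 protein-coding genes of mitochondrial DNA, which supply some of the core subunits, had a median change of 1.00 against 3.28 for the nuclear members. Of them 9 rose and none fell. mt-Nd1 and mt-Nd3, both of complex I, had the largest rises (2.08 ± 0.20 and 1.95 ± 0.24). Genes of coenzyme Q synthesis rose for 6 of 11, led by Coq2 (no count at rest, 21.1 ± 3.14 RPM after activation), and the other enzymes that feed electrons to Q for 4 of 6, while Etfdh fell (-1.22 ± 0.28). All 3 tested carriers of ADP, ATP and phosphate rose, and Slc25a5, the adenine nucleotide translocator 2, went from 16.9 ± 6.81 to 656 ± 109 RPM (5.30 ± 0.42). Hccs, the heme lyase of cytochrome c, did not pass (0.27 ± 0.37, adjusted p = 0.559). Between activated Acly knockout and wild type cells no gene of any of these lists passed.

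Among 15 regulators of mitochondrial genes 9 rose and 4 fell, where 21.4% of all genes rose and 23.8% fell, so the share that fell was close to that of all genes. Pprc1, a coactivator of the PGC-1 family, and Myc rose by 4.80 ± 0.72 and 4.38 ± 0.42, and Polrmt, the mitochondrial RNA polymerase, by 3.29 ± 0.68. Ppargc1a, the founding member of the PGC-1 family, fell from 11.9 ± 6.57 to 3.92 ± 1.37 RPM (-1.42 ± 0.57, adjusted p = 0.0388), and Mterf3 and Tfb1m changed by -1.34 ± 0.28 and -1.23 ± 0.47. The calls of Ppargc1a and Tfb1m ended with trimmed-mean scaling (-0.98 and -0.78) and without wild type resting 1 (-1.52 and -1.25) or 3 (-1.01 and -1.20), among other settings. Members with an NRF1 match in their promoter window had a median change of 3.61 (17 tested) and those without 3.15 (50 tested). For GABP the medians were 3.21 and 3.28, and for YY1 2.90 and 3.31.

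No difference of a member between Acly knockout and wild type cells passed the test in either state. In resting cells no member passed the threshold in limma, edgeR or DESeq2, where 0% of all genes did in limma. The smallest adjusted p in limma was 0.589, and 15 members had an unadjusted p under 0.05 (7 in edgeR, 9 in DESeq2). The median change was -0.11, against 0.02 for all genes. All 3 knockout libraries lay below all 3 wild type ones for 9 members (3.74% of all genes) and above for 1 (3.33%).

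The members with the smallest p at rest were Ndufa10, Ndufb3 and Atp5g2. Ndufa10, an accessory subunit of complex I, held 9.28, 12.7 and 8.94 RPM in wild type and 5.71, 2.13 and 7.57 RPM in knockout libraries (-1.07 ± 0.36, adjusted p = 0.589). Ndufb3 and Atp5g2 changed by -1.05 ± 0.36 and -0.83 ± 0.28. Wild type resting 3 was the lowest of its group for the summed members, at 1218 RPM against 1175 to 1470 RPM in the knockout group. Without it (0.344% of all genes lower) Ndufa2, Ndufa6, Atp5c1, Cox8a and Cox6b1 passed as lower in knockout cells, with changes of -0.89 to -1.36 and adjusted p of 0.0200 to 0.0448.

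In activated cells no member passed in limma, edgeR or DESeq2 either, where 0.00639% of all genes passed as lower and 0% as higher in limma. Every adjusted p in limma was 1, and 1 member had an unadjusted p under 0.05 (3 in edgeR, none in DESeq2). The 87 genes summed to 12014, 11084 and 10825 RPM in knockout and 12919, 12915 and 11497 RPM in wild type libraries, which overlap. The median change was -0.10, against -0.05 for all genes, and -0.00 against 0.00 with trimmed-mean scaling. All 3 knockout libraries lay below all 3 wild type ones for 14 of 82 members, 6 of them grouped with complex I, against 7.38% of all genes, and above for Ndufs8 alone, against 3.56%.

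**Figure D5:**
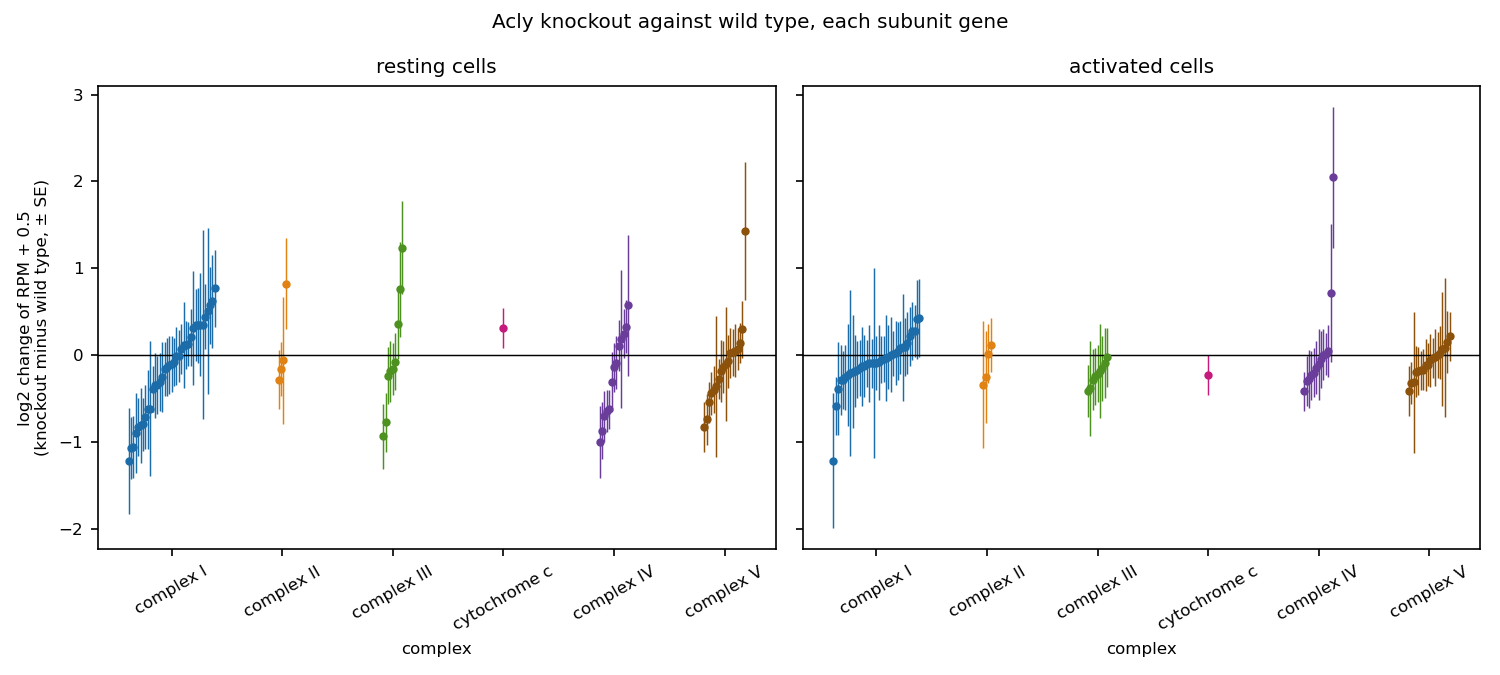
Acly knockout minus wild type (log2 of RPM + 0.5, fitted change ± SE, 3 libraries per group) for each tested subunit gene, by complex, in resting (left) and activated cells (right). No point passed the adjusted p of 0.05, the medians are -0.11 at rest and -0.10 after activation, and the high complex IV point at right is Cox6b2, which rests on few counts and stayed at or under 4.41 RPM.

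Cox8a, Ndufb10 and Cox6b2 had the smallest p among the activated comparisons. Cox8a held 796, 762 and 670.3 RPM in wild type and 499, 644 and 532 RPM in knockout libraries (-0.42 ± 0.23, adjusted p = 1), without overlap. Ndufb10 held 81.5, 70.2 and 50.5 RPM and 47.2, 40.8 and 44.0 RPM (-0.59 ± 0.33). Cox6b2 held 0, 0 and 2.64 RPM in wild type and 3.78, 4.41 and 2.14 RPM in knockout libraries (adjusted p = 1), levels near 3 counts. For the interaction of genotype and activation no member passed in limma, where 0% of all genes did, and 5 members had an unadjusted p under 0.05, as did 5 in edgeR and 3 in DESeq2, where none passed. The members' values ran from -1.42 to 1.47, and those with the smallest p were Atp5g2, Ndufa10 and Ndufa11, at 1.04 ± 0.40, 1.21 ± 0.51 and 1.04 ± 0.48 (adjusted p = 1 for each).

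In the Pdha1 cohort, which asks the same of pyruvate dehydrogenase, libraries of 1 labelled group differed up to about as much as the states did. The members summed to 962, 658 and 1243 RPM in resting and to 13180, 5940 and 950.2 RPM in activated wild type libraries, and to 1086, 863 and 5590 RPM in resting and 4598, 4047 and 3262 RPM in activated knockout libraries. The wild type groups overlap through wild type activated 3, and the knockout groups through knockout resting 3. Receptor genes moved the other way: they summed to 105016 RPM in wild type activated 3 against 26265 and 71983 RPM in its group, and to 66035 RPM in knockout resting 3 against 104047 and 107772 RPM. Their part in the results of this cohort was not tested. Per kb of exon the median member held 3.55, 1.79 and 6.17 RPM in resting wild type libraries 1 to 3. The median receptor gene held 1.98, 2.06 and 1.90 RPM there. In the resting libraries labelled knockout the values were 4.18, 2.14 and 25.1 RPM against 2.03, 2.10 and 1.26 RPM. In wild type resting 2 and knockout resting 2 the median member was thus no clearer than a receptor gene.

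Activation in Pdha1 wild type cells had a median change of 2.32 over the 82 tested members, against -0.35 for all genes, with 81 members above 0. No member passed in limma or edgeR, where 0% of all genes did in limma, although 39 members had an unadjusted p under 0.05 in limma and 66 in edgeR. DESeq2 called 51 higher (6.26% of all genes). Without wild type activated 3, 48 passed (9.48% of all genes higher). Without this library and knockout resting 3 together 72 passed as higher (14.9% of all genes), with a median of 3.47 against -0.57 for all genes. These libraries were picked because their values went against their state labels. Calls and p-values of activation without them are partly set by that choice. So are the genotype and cohort differences given below without them. In the labelled knockout the median was 1.48, against -0.03 for all genes. No member passed in the 3 tools, with 2 at an unadjusted p under 0.05 in limma and none in edgeR or DESeq2. Without the same 2 libraries 47 passed as higher (7% of all genes), with a median of 2.48 against -0.20 for all genes.

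Cycs held 30.6, 22.0 and 40.8 RPM in resting and 1569, 696 and 33.3 RPM in activated wild type libraries. In the libraries labelled knockout it held 24.3, 42.3 and 517 RPM and 392, 420.5 and 273 RPM. Without the 2 libraries its change was 5.09 ± 0.43 in wild type and 3.45 ± 0.43 in knockout cells (adjusted p = 6.36e-07 and 8.97e-05). Ndufa12, Atp5g3 and Cox8a changed by 5.43 ± 0.47, 4.88 ± 0.62 and 3.79 ± 0.58 in wild type and by 4.31 ± 0.47, 4.15 ± 0.62 and 3.01 ± 0.58 in knockout cells. Ndufb2 changed by 0.17 ± 0.35 and -0.60 ± 0.35 and did not pass in either. Across 81 members the Spearman correlation with the change in Acly wild type cells was 0.80 for Pdha1 wild type and 0.70 for Pdha1 knockout cells, again a description over genes.

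Between the labelled genotypes of the Pdha1 cohort no member passed at rest, after activation or for the interaction, in limma, edgeR or DESeq2, where 0% of all genes did in limma. At an unadjusted p under 0.05 there were 2, 1 and 1 members in limma, 16, 0 and 22 in edgeR, and 14, 1 and 31 in DESeq2. The median difference between activated knockout and wild type cells was -0.00 as labelled, against 0.26 for all genes, and -1.10 without the 2 libraries. Without them 77 of 82 members were below 0, 28 had an unadjusted p under 0.05 and the smallest adjusted p was 0.225. Leaving out wild type activated 3, the lowest of its group in summed members, raised the summed wild type level. The difference without it is thus partly set by that choice. No value of all genes is given for this difference, so a shift of whole libraries cannot be told from a trait of the members. Receptor genes summed to 75145 to 88998 RPM in the activated knockout libraries and to 26265 and 71983 RPM in the activated wild type ones that remained. As labelled, the median after activation was -0.57 in edgeR and -0.95 in DESeq2, so its size depended on the tool. At rest the median was 0.77 as labelled in limma, against 0.04 for all genes, 1.81 in edgeR and 1.91 in DESeq2. Without the 2 libraries it was -0.04 in limma. For the interaction as labelled the median was -0.81 in limma, against 0.21 for all genes, -2.41 in edgeR and -2.89 in DESeq2.

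By the smallest p, the leading members at rest were Ndufa9 (2.05 ± 0.70), Ndufv1 (1.14 ± 0.56) and Ndufs8, with 0, 0 and 1.5 RPM in wild type and 2.2, 1.69 and 9.46 RPM in knockout libraries. After activation they were Ndufs8, Ndufa4l2 and Cox7b2. Ndufs8 held 4.56, 11.6 and 0 RPM in wild type and 12.6, 11.97 and 13.6 RPM in knockout libraries (2.08 ± 1.02). Ndufa4l2 held 0, 0.966 and 0 RPM and 2.95, 3.42 and 1.6 RPM, and Cox7b2 0, 0.966 and 2.14 RPM and 2.95, 2.56 and 6.39 RPM, levels near 3 counts for which no fold is given. In activated cells all 3 libraries labelled knockout lay above all 3 wild type ones for these 3 members (3.99% of all genes) and below for none (1.74%). For the interaction the leading members were Ndufa9 and Ndufb10, at -2.12 ± 0.99 and -1.59 ± 0.76, and Cox7b2. All of their adjusted p lay at 0.999 or 1.

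Between the cohorts, a single fit of all 24 libraries asked whether activation and knockout moved the set differently. For activation of wild type cells the members were 0.95 higher in the Acly cohort by median, against -0.10 for all genes. None passed the threshold in limma, edgeR or DESeq2 (0.0453% of all genes in limma), with 4, 5 and 5 members at an unadjusted p under 0.05. Cox4i1, Ndufb8 and Ndufv1 had the smallest p, at 1.93 ± 0.61, 2.34 ± 0.79 and 1.57 ± 0.74 (adjusted p = 0.36, 0.404 and 0.583). Without the 2 libraries that went against their labels the median difference was -0.09, and without Pdha1 wild type activated 1 just 1 member passed (0.518% of all genes higher, 1.13% lower). For the knockout effect in activated cells no member passed in the 3 tools (0% of all genes in limma), with 1, 2 and 2 at an unadjusted p under 0.05. The median was -0.12 in limma, against -0.30 for all genes, but 0.53 in edgeR and 0.92 in DESeq2. Without the 2 libraries that went against their labels this median turned to 1.02 in limma, with 78 of 83 members above 0, 15 at an unadjusted p under 0.05 and none past the threshold (smallest adjusted p = 0.315). These values too are partly set by the choice of libraries. No value of all genes is given beside them, so a shift of whole libraries cannot be told from a trait of the members. With all libraries, Ndufa4l2, Cox6b2 and Ndufs8 had the smallest p (adjusted p = 1 for each), and of them Ndufs8 stood at -1.66 ± 1.09. Cohort differences include everything else that separated the cohorts, such as their erythroid marker levels, and these cannot be told apart.

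Cox7a2l and Cox6a2 differed visibly between the cohorts, and both were singled out after their values were seen. Cox7a2l held 32.0, 8.37 and 50.7 RPM in resting and 108, 69.1 and 39.8 RPM in activated wild type libraries of the Pdha1 cohort, and 33.9, 3.38 and 71.1 and 64.9, 56.8 and 41.7 RPM in the labelled knockout. Every activated library of the Acly cohort (143 to 180.1 RPM) lay above every activated library of the Pdha1 cohort (39.8 to 108 RPM). The share of all genes that did so is not given here. Summed members ran from 950.2 to 13180 RPM in these Pdha1 libraries and from 10825 to 12919 RPM in the Acly ones. A comparison of resting wild type cells added for this reason gave 2.26 ± 0.81 (adjusted p = 0.727) for Cox7a2l and an adjusted p of 0.522 for Ndufs8, which held 4.64, 2.82 and 4.47 RPM in the Acly and 0, 0 and 1.5 RPM in the Pdha1 cohort. No member passed in limma, edgeR or DESeq2 (0% of all genes in limma), 3, 3 and 5 had an unadjusted p under 0.05, and Ndufs8 passed without the 2 libraries (adjusted p = 0.0394, 0.268% of all genes).

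Cox6a2, the heart and muscle form of subunit 6a, had counts in 1 of 12 Acly libraries (0.997 RPM) but in most libraries of the Pdha1 cohort. It held 0.677, 0 and 5.26 and 48.0, 8.7 and 0 RPM in resting and activated wild type libraries, and 0, 0 and 18.9 and 6.65, 5.98 and 5.59 RPM in the labelled knockout. Its high values fall in the libraries with high summed members, knockout resting 3 included. The gene lies at chr7:128205435-128206387 (GRCm38) and shares exonic bases with Itgad on the opposite strand. Cox6a1, its general relative, held 200.3, 101 and 7.5 RPM in the same activated wild type libraries.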

How the data were processed

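RNA of 24 libraries of mouse CD4 T cells was prepared with a ribosomal RNA and globin depleting, stranded total RNA kit and sequenced as single reads, per the labels' protocols. The authors deposited 1 table of 46981 gene identifiers in RPM (reads scaled to a common library total). GRCm38 and mm10 are the builds named per the submitters' processing notes; the aligner and the counter were not stated. Symbols, chromosomes and exons came from the GENCODE M21 annotation, matched for 46206 identifiers, and 775 had none. The spacing of the deposited RPM values matched whole counts after a correction for collisions among 4096 molecular identifiers, a step inferred from the values and recorded in no label. Inverting it gave whole counts within 0.01 for 100% of values in each library, and these are the recovered counts given as depth. edgeR and DESeq2 used the counts with the correction kept, rounded to whole numbers.

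The main test was limma 3.58.1 (R 4.3.3, trend and robust) on log2(RPM + 0.5), keeping a gene where 3 or more of the fitted libraries reached 1 RPM. Each cohort was fitted with its 4 groups together, and comparisons between cohorts used all 24 libraries. P-values were adjusted by Benjamini-Hochberg over all genes tested, with a threshold of 0.05. Member counts at an unadjusted p under 0.05, and counts above or below 0, are given without the share of all genes. They cannot tell a trait of the members from a shift of whole libraries. edgeR 4.0.16 (quasi-likelihood), DESeq2 1.42.0, other pseudocounts, filters and scalings, a replicate block and leaving out each library were the alternatives, and each fitting script was tested on simulated data. The comparison of resting wild type cells between cohorts was added after seeing the data. Pdha1 knockout resting 3 and wild type activated 3 were also left out together, picked because their values went against their state labels.

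Members and lists were chosen with earlier results of these data known. Genes are named by rule: complex II, Cyc1 and Cycs; per complex the 3 most abundant and the 2 with the highest and the 2 with the lowest activation change; the members past the threshold, or else the 3 with the smallest p, per genotype and cohort comparison; all tissue-form pairs; and per list the 3 highest and 3 lowest genes, of which the report names those a sentence is about and the closing section those whose direction turned. 1 member is left out of the plots of single genes and its own values are not reported here; it stays in the counts and medians. Further genes are named as examples chosen after their values were seen. Same-numbered libraries had correlated deviations above 0.1 in 1 of 18 pairs in the Acly cohort and 4 of 18 in the Pdha1 cohort, so the numbers were not taken as pairs.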

Additional observations from a re-analysis of the deposited data

How the results depend on the processing

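Of the 356 values giving how many members passed in an alternative setting, 349 stayed within 1.5 times of the reported number, including every setting for the 2 activation comparisons of the Acly cohort. In every other comparison the reported number was 0. A value that stayed there means only that no member passed. The 7 that moved were 5 members in resting Acly knockout against wild type cells without wild type resting 3, 1 in the wild type activation difference between cohorts without Pdha1 wild type activated 1, and 1 in the added comparison of resting wild type cells without Pdha1 knockout resting 3 and wild type activated 3. For Pdha1 wild type activation they were 51 in DESeq2, 48 without wild type activated 3 and 72 without both of those libraries, and for Pdha1 knockout activation 47 without both. Among single genes, 43 of 2897 alternative values reversed their sign, all in activated against resting wild type cells of the Acly cohort and none of a gene that had passed the threshold. With trimmed-mean scaling these were Timmdc1 (0.10), Nubpl (0.18), Cox19 (0.097), Coa4 (0.37) and Pdss2 (0.41). In edgeR these were Timmdc1 (0.21), Nubpl (0.23), Cox19 (0.16), Coa4 (0.40) and Pdss2 (0.32). In DESeq2 these were Timmdc1 (0.094), Nubpl (0.15), Cox19 (0.066), Coa4 (0.33) and Pdss2 (0.25). With quantile normalization these were Ndufv3 (-0.14), Cox7a2l (-0.19), Sdhaf2 (-0.28), Atpaf2 (-0.41), mt-Nd5 (-0.30), mt-Nd4l (-0.42) and mt-Atp8 (-0.21). With scaling to protein-coding genes outside the receptor families these were Sdhaf2 (-0.33), Ttc19 (-0.10), Atpaf2 (-0.23), Hccs (-0.20), mt-Nd5 (-0.46), mt-Nd4l (-0.13), mt-Atp8 (-0.048) and Coq4 (-0.28). Leaving out 1 wild type library of the Acly cohort turned Nubpl (-0.44 to 0.018 over the left-out libraries), Sdhaf2 (-0.11 to 0.42), Coa4 (-0.28 to 0.11), mt-Nd5 (-0.24 to 0.31), Coq8a (-0.89 to 0.19), Pdss2 (-0.29 to 0.31), Coq4 (-0.077 to 0.36) and Sqor (-1.39 to 0.11). The cause was not tested. The sign of a gene that turned is not given as a direction.

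The replicate block, with the replicate number as a term, gave 76 members higher and 2 lower (Ndufb2 at -0.59, adjusted p = 0.0248, and Cox7b2 at -1.85, adjusted p = 0.0497, in limma) in Acly wild type activation, 77 higher and 1 lower in knockout activation and 0 in every other comparison. Same-numbered libraries of the Acly cohort correlated by 0.01 to 0.13, and 11 of 12 libraries correlated best with their own number, a hint from the data and not the design; in the Pdha1 cohort the correlations ran from -0.62 to 0.24 with 2 of 12. At these depths a count of 0 allows 2.03 to 6.83 RPM, so the size of a change is imprecise for the members whose resting mean lay under it.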
